A study of Mus musculus with 7 samples.

Results

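Mitochondrial ribosomal protein genes are the nuclear genes that code for the protein parts of the mitochondrial ribosome. They were taken from the deposited hippocampal count table as every row whose symbol begins with Mrpl or Mrps followed by a digit, leaving out symbols marked as pseudogenes (-ps). The rule gave 78 of 21965 genes, 0.355% of the table, and left out 0 rows. It used the symbols only and no measured value. All 78 genes had counts in every library and passed the low-count filter, which kept 14417 genes.

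RNA-seq had been run on hippocampus of mice in 7 libraries. Control consisted of 3 libraries from blank control mice. The NIHHL group consisted of 4 libraries from a mouse model of hidden hearing loss induced by noise (NIHHL); the mice were exposed to noise of 110 dB for 2 h, and their hippocampi were collected 1 month after induction. The series' design text asks which hippocampal genes accompany the memory impairment of these mice. The labels give no strain, genotype, age or sex. Nothing in them ties a library to an animal of its own, and the p-values therefore rest on the spread among these libraries, which may be technical.

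The mitochondrial ribosome translates only the messenger RNAs encoded by mitochondrial DNA, all of which code for subunits of the respiratory chain or of ATP synthase. Its ribosomal RNAs come from mitochondrial DNA, while every one of its proteins is made in the cytosol and imported. The large subunit (Mrpl genes and a few others) forms peptide bonds, and the small subunit (Mrps genes) reads the messenger. Part of the proteins descend from bacterial ribosomal proteins and the others are specific to mitochondria. Neurons depend heavily on oxidative phosphorylation, and inherited defects of these proteins cause disease of brain, heart and other organs with a high energy demand.

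By role, 51 of the 78 genes code for the large subunit and 26 for the small one. Mrps30 and Mrps18a carry small-subunit symbols but encode proteins of the large subunit and were counted there. Mrps36 carries a ribosomal symbol, but its product is known as an adaptor of the 2-oxoglutarate dehydrogenase complex, so it stood alone. Among the other 77, 46 have bacterial homologues and 31 are specific to mitochondria. The genes lie on 17 chromosomes, with at most 11 on a chromosome, number 11. Their principal transcripts in the GENCODE M21 annotation (GRCm38) had a median length of 1302 bases and ran from 418 to 7300 bases, against a median of 3101 bases for all genes tested.

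Total counts ran from 14871367 to 24515138 per library. A gene of the set had between 87 and 1939 counts in a library. The excitatory neuron markers fixed for hippocampus were measured in 8 of 8 cases, and their summed level was between 5686 and 7151 CPM (counts scaled to the size of the library) in Control and between 6232 and 6961 CPM in NIHHL. A trend with transcript length set libraries apart. It was measured as Spearman's rank correlation, over 8383 genes, between a gene's log2 deviation from its mean and its length. Genes are not independent replicates. This correlation was -0.65 in Control replicate 2, where short transcripts stood highest. It was 0.61 in NIHHL replicate 4 and 0.50 in Control replicate 1, and between -0.36 and 0.088 in the other 4 libraries.

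Mean levels over the 7 libraries ran from 7.36 CPM for Mrps28 to 66.6 CPM for Mrpl48, with a median of 26.0 CPM. Between genes, levels were compared as CPM per kilobase of principal transcript. On this scale Mrpl20 was highest at 66.6 CPM per kilobase, with libraries between 44.2 and 91.8. Mrpl42 followed at 62.5 (libraries 50.9 to 78.5), Mrpl30 at 57.2 (43.6 to 68.02) and the small-subunit gene Mrps33 at 56.3 CPM per kilobase (46.7 to 73.5). The ranges of these 4 genes overlap. The genes were measured in the same libraries and moved together, so overlapping ranges do not settle their order.

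At the other end stood Mrps35 at 4.25 CPM per kilobase (libraries 3.44 to 4.99), Mrpl17 at 4.397 (4.07 to 5.01), Mrpl47 at 4.61 (4.12 to 5.09) and Mrpl1 at 4.97 (4.43 to 5.69), again with overlapping ranges. The span from lowest to highest gene was 15.7-fold. The 4 lowest genes have long annotated transcripts, and of them Mrpl17 alone left the lowest places with another choice of length. With the median basic coding transcript in place of the principal one, Mrpl17 went from 4.397 to 31.2 CPM per kilobase. Mrps17 went from 10.97 to 64.0 and Mrpl20 from 66.6 to 103 CPM per kilobase, still the highest. After Mrpl20 then came Mrps33 at 87.0, Mrpl30 at 83.7, Mrps17, and Mrpl42 at 62.9. Mrps35 and Mrpl47 had the same value with either length.

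**Figure D1:**
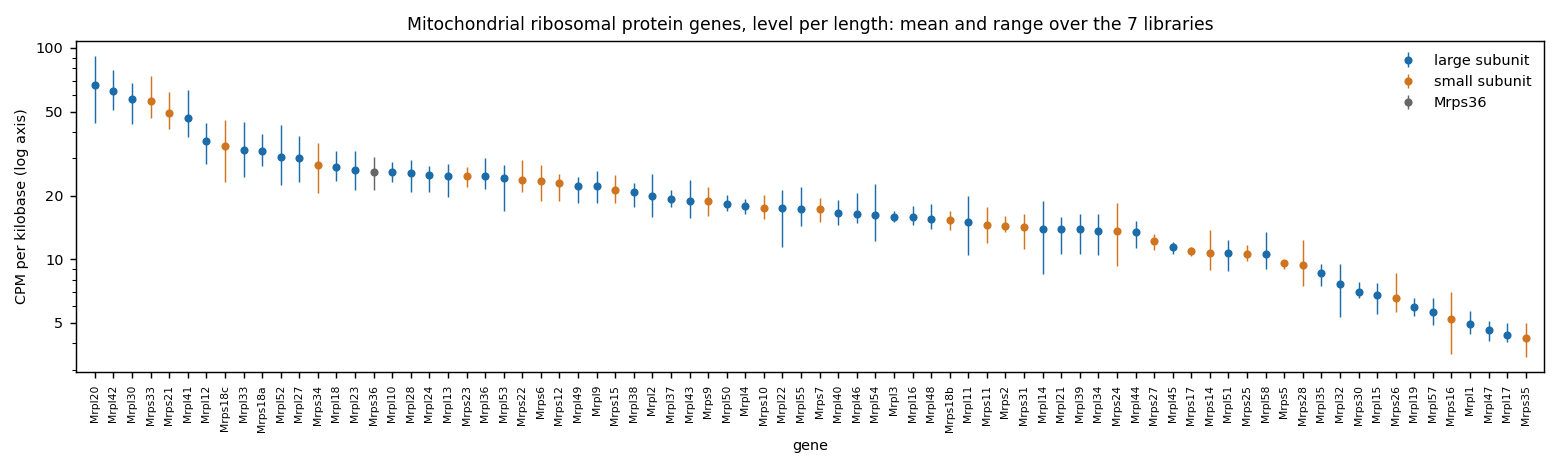
Mean CPM per kilobase of principal transcript (points, log axis) and range over the 7 libraries (bars) for the 78 genes, ordered by level and coloured by subunit. Genes of both subunits lie along the whole span from 4.25 to 66.6 CPM per kilobase.

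After noise, most of the set had slightly lower means than in Control, and no gene passed the test. Of 78 genes, 71 had a log2 fold change (NIHHL minus Control) below 0, where 50.1% of all genes tested did. The median was -0.11, beside -4.54e-04 for all genes tested. This depended on single libraries. Without Control replicate 2, the set's highest library, the count below 0 was 42 with a median of -0.0056. Without NIHHL replicate 4, its lowest library, the count was 53 with a median of -0.059. With all libraries the range was -0.36 to 0.075, and 35 of the 78 lay within 0.1 of 0. By edgeR's quasi-likelihood test with Benjamini-Hochberg adjustment over all genes, 0 of the 78 were called at an adjusted p under 0.05, and the lowest adjusted p of the set was 0.996. Over all genes the background was 0 called of 14417 tested (0%). At an unadjusted p under 0.05 stood 2 of the 78, where 3.63% of all genes did. Both were lower in NIHHL (all genes 1.31%) and 0 were higher (all genes 2.32%). DESeq2 also called 0 of the 78 and had the same 2 at an unadjusted p under 0.05. For 0 of the 78 did the groups separate, where every NIHHL library lay below every Control library for 2.37% of all genes and above for 2.84%.

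**Figure D2:**
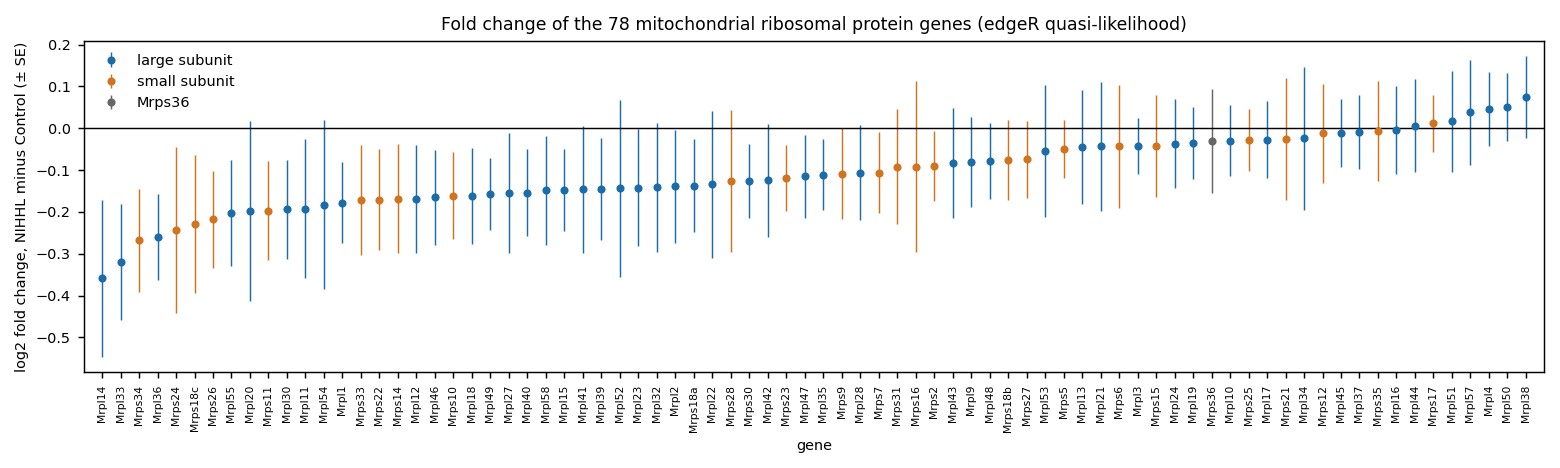
Log2 fold change of each gene (NIHHL minus Control, points) with its standard error (bars), coloured by subunit. Points run from -0.36 for Mrpl14 to 0.075 for Mrpl38, 71 of 78 lie below 0, and standard errors are about as large as the differences.

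With all libraries both subunits held this direction. Large-subunit genes had a lower mean in NIHHL in 45 of 51 cases (median -0.13) and small-subunit genes in 25 of 26 (median -0.099). Both turned when Control replicate 2 and NIHHL replicate 4 were omitted together. Large-subunit genes were then lower in 14 of 51 cases (median 0.068) and small-subunit genes in 11 of 26 (median 0.032). The omitted libraries were the highest and lowest of the set, so leaving them out was bound to raise its medians. With the offset for transcript length, the medians were -0.059 (37 of 51 lower) and -0.076 (22 of 26 lower). Genes with bacterial homologues were lower in 44 of 46 cases (median -0.11) and those specific to mitochondria in 26 of 31 (median -0.12). Summed over the large subunit, levels were 1505 ± 191 CPM in Control against 1405 ± 117 CPM in NIHHL (mean ± SD, n = 3 and 4). For the small subunit they were 744 ± 83.8 and 693 ± 40.7 CPM. The ratio of the sums, large to small, was 2.02 ± 0.0341 in Control and 2.02 ± 0.0586 in NIHHL, and ran from 1.94 in NIHHL replicate 4 to 2.07 in NIHHL replicate 2.

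Among the large-subunit genes with the smallest p, Mrpl36 encodes the homologue of a small bacterial protein. Mrpl36 (chr13:73328513-73332178, + strand, GRCm38) was at 21.6, 25.97 and 27.9 CPM in Control replicates 1 to 3 and at 22.6, 21.3, 20.5 and 19.8 CPM in NIHHL replicates 1 to 4. The highest NIHHL library lay above the lowest Control library, so the groups overlap. The log2 fold change was -0.26 (SE 0.10, 95% interval -0.49 to -0.03; adjusted p = 0.996, edgeR).

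Mrpl33 (chr5:31596935-31664384, + strand), another homologue of a small bacterial large-subunit protein, was at 15.3, 21.2 and 16.4 CPM in Control against 15.004, 14.1, 15.9 and 11.7 CPM in NIHHL, a log2 fold change of -0.32 (SE 0.14, adjusted p = 0.996, edgeR). Only Control replicate 2 and NIHHL replicate 4 stood clear of the other 5 libraries. Mrpl14, whose bacterial counterpart sits at the interface of the subunits, was at 8.23, 12.1 and 10.6 CPM in Control against 9.20, 8.62, 8.92 and 5.49 CPM in NIHHL (log2 fold change -0.36, SE 0.19). Its extremes were the same 2 libraries. Mrpl49, specific to mitochondria, was at 39.5, 43.1 and 42.9 CPM in Control against 39.7, 38.8, 38.9 and 32.6 CPM in NIHHL (-0.16, SE 0.086). Mrpl1, whose bacterial counterpart forms the stalk where transfer RNA leaves the ribosome, was at 19.4, 20.2 and 17.1 against 16.7, 18.2, 15.7 and 16.3 CPM (-0.18, SE 0.097). In Mrpl1 Control replicate 3 lay within the NIHHL range.

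Of the small subunit, Mrps34 (chr17:24895116-24897502, + strand), a protein specific to mitochondria and needed for a stable small subunit, was at 25.2, 32.4 and 27.1 CPM in Control against 25.6, 24.8, 24.7 and 18.9 CPM in NIHHL (log2 fold change -0.27, SE 0.12). Its exons share 763 bases with Nme3 on the same strand and 1309 with Mapk8ip3 on the opposite one, and its deposited counts carried decimals in all 7 libraries, so its level is uncertain. Mrps26 was at 26.4, 36.9 and 28.3 CPM in Control against 27.9, 24.2, 26.3 and 26.8 CPM in NIHHL (-0.22, SE 0.12). Control replicate 2 was the single high library, and the deposited counts of Mrps26 also carried decimals in all 7 libraries. Mrps11, the homologue of a platform protein of the bacterial small subunit, was at 14.6, 18.7 and 16.2 against 14.7, 14.2, 16.3 and 12.6 CPM (-0.20, SE 0.12).

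Over the 17 analysis settings these 8 genes stayed below 0, but their size varied. Values ran from -0.36 to -0.18 for Mrpl36, from -0.41 to -0.079 for Mrpl33, from -0.49 to -0.080 for Mrpl14 and from -0.34 to -0.063 for Mrps34. For Mrps26 they ran from -0.31 to -0.053, for Mrpl49 from -0.20 to -0.072, for Mrpl1 from -0.25 to -0.11 and for Mrps11 from -0.27 to -0.033. The smallest values of Mrpl33, Mrpl14 and Mrps34 came without Control replicate 2 and NIHHL replicate 4, and that of Mrps26 without Control replicate 2 alone.

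The 7 genes with a higher mean in NIHHL had log2 fold changes of 0.0062 to 0.075. Mrpl38 was at 24.9, 32.6 and 27.6 CPM in Control against 30.9, 30.6, 30.2 and 28.1 CPM in NIHHL, a log2 fold change of 0.075 (SE 0.098). Every NIHHL library lay inside the Control range. Mrpl50 (log2 fold change 0.051, SE 0.082), Mrpl4 (0.046, SE 0.088), Mrpl57 (0.038, SE 0.13), Mrpl51 (0.016, SE 0.12) and Mrpl44 (0.0062, SE 0.11) belong to the large subunit, and Mrps17 (0.012, SE 0.067) to the small one. Mrps17 was nearly level across libraries, between 52.3 and 57.9 CPM, and the fold from its lowest to its highest library was 1.11.

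Several members have known special roles. Mrpl10 and Mrpl12 form the flexible stalk that recruits translation factors, and Mrpl12 is also known to bind the mitochondrial RNA polymerase. Mrpl12 was at 41.3, 58.3 and 52.8 CPM in Control against 50.2, 45.4, 48.5 and 37.2 CPM in NIHHL (log2 fold change -0.17, SE 0.13), and Mrpl10 had a log2 fold change of -0.029 (SE 0.085). Mrpl45, which faces the inner membrane near the exit of the peptide tunnel, stayed between 25.7 and 29.4 CPM in all libraries (-0.011, SE 0.082). Mrpl58, a peptidyl-tRNA hydrolase that rescues stalled ribosomes, was at 25.7, 35.1 and 26.3 CPM in Control against 30.7, 26.1, 24.7 and 23.4 CPM in NIHHL (-0.15, SE 0.13). In each of these genes the groups overlapped.

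The Mrps18 genes are paralogues of one bacterial protein with different places in the ribosome, and only Mrps18c was counted as a bacterial homologue here. Mrps18a of the large subunit had a log2 fold change of -0.14 (SE 0.11), Mrps18b of the small subunit -0.075 (SE 0.096) and Mrps18c, also of the small subunit, -0.23 (SE 0.17). Per length Mrps18c stood at 34.2 CPM per kilobase, Mrps18a at 32.7 and Mrps18b at 15.4. The library ranges of Mrps18c (23.3 to 45.4) and Mrps18a (27.6 to 39.2) overlap, while that of Mrps18b (13.8 to 16.9) lies below both. With the median basic coding transcript as length, Mrps18a stood highest of them at 46.5, Mrps18c at 34.2 and Mrps18b at 20.6. Mrps12, part of the decoding centre, averaged 20.2 ± 3.13 CPM in Control libraries and 20.1 ± 1.61 in NIHHL libraries (-0.012, SE 0.12), and Mrps5, whose bacterial counterpart affects decoding accuracy, averaged 43.7 ± 1.04 and 42.2 ± 1.67 CPM (-0.050, SE 0.069). Mrpl2 and Mrpl3, core proteins around the peptidyl transferase centre, differed by -0.14 (SE 0.14) and -0.042 (SE 0.068) on the log2 scale, and Mrps30 by -0.13 (SE 0.088). Mrps36, the member outside the ribosome, averaged 18.4 ± 1.79 CPM in Control libraries and 18.1 ± 2.63 in NIHHL libraries (-0.030, SE 0.12).

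The median standard error of the 78 log2 fold changes was 0.12, and the 95% interval included 0 for 76 genes. The intervals reached down to -0.77 for Mrpl14 and up to 0.36 for Mrps16, the widest bounds of the set; Mrps16 was named after its value was seen.

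The spread between libraries was wider than the difference between group means. The summed level of the 78 genes was 2001, 2552 and 2248 CPM in Control replicates 1 to 3 and 2228, 2158, 2198 and 1881 CPM in NIHHL replicates 1 to 4. Control replicate 2 was the highest library and NIHHL replicate 4 the lowest, and the other 5 lay between 2001 and 2248 CPM with Control replicate 1 lowest of them. Group means were 2267 ± 276 CPM in Control against 2116 ± 159 CPM in NIHHL (mean ± SD, n = 3 and 4), a ratio of 0.933, and the difference was smaller than the SD of either group. As a share of all counts the set took 0.225% ± 0.0243 in Control and 0.213% ± 0.0168 in NIHHL.

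The genes moved together from library to library. In Control replicate 2 all 78 were above their own mean over the 7 libraries, and in NIHHL replicate 4 only 5 were. Control replicate 1 had 9 above their mean, and the other libraries between 34 and 52. Control replicate 2 was the highest library for 60 genes and NIHHL replicate 4 the lowest for 50, with both true of 41. Control replicate 1 was the lowest for 19. The fold from the lowest to the highest library had a median of 1.42 and ran from 1.10 for Mrps5 to 2.21 for Mrpl14.

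**Figure D3:**
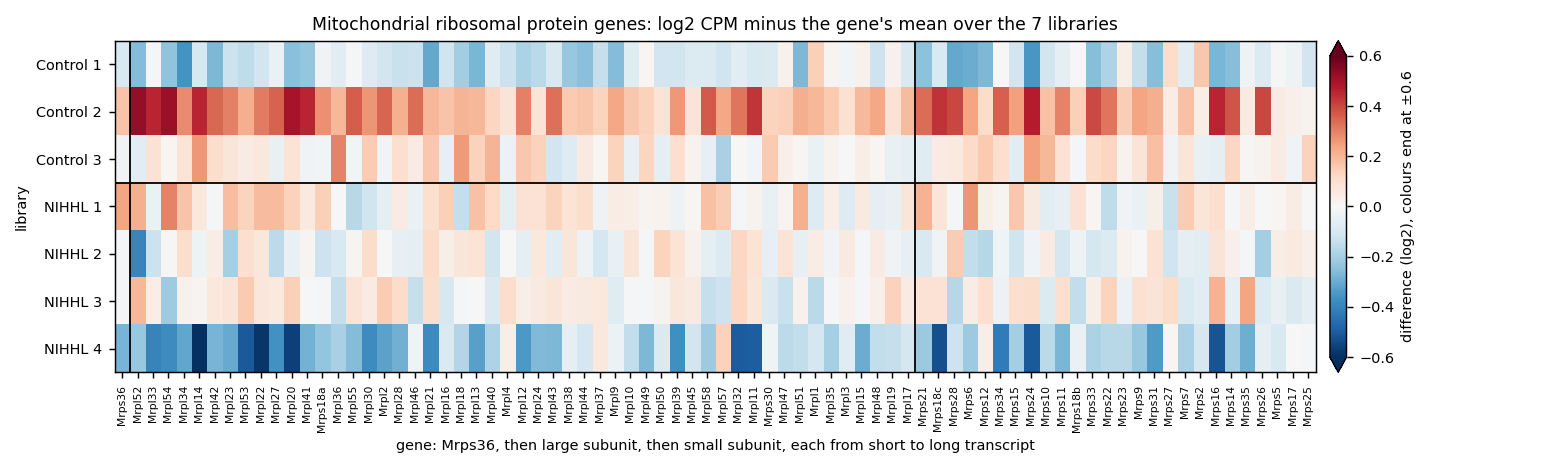
Colours give each gene's log2 CPM minus its mean over the 7 libraries, libraries in rows and genes in columns, ordered by subunit and then by transcript length. Control replicate 2 is above the mean for all 78 genes and NIHHL replicate 4 below it for most.

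Transcript length moved with this pattern. Among the 39 shorter genes of the set (median 918 bases) the median deviation was 0.30 in Control replicate 2 and -0.28 in NIHHL replicate 4, and among the 39 longer ones (median 2596 bases) 0.17 and -0.15. Between groups, the shorter genes were lower in NIHHL in 38 of 39 cases with a median log2 fold change of -0.14, and the longer ones in 33 of 39 with -0.082. Cytosolic ribosomal protein genes, which are also short, took 2.17% of counts in Control replicate 2 and 1.33% in NIHHL replicate 4, with 1.54% in Control replicate 1 and between 1.85% and 1.92% in the other 4 libraries. With an offset for the length trend in each library, 59 of the 78 mitochondrial ribosomal protein genes were lower and the median was -0.066, beside -0.0095 for all genes.

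**Figure D4:**
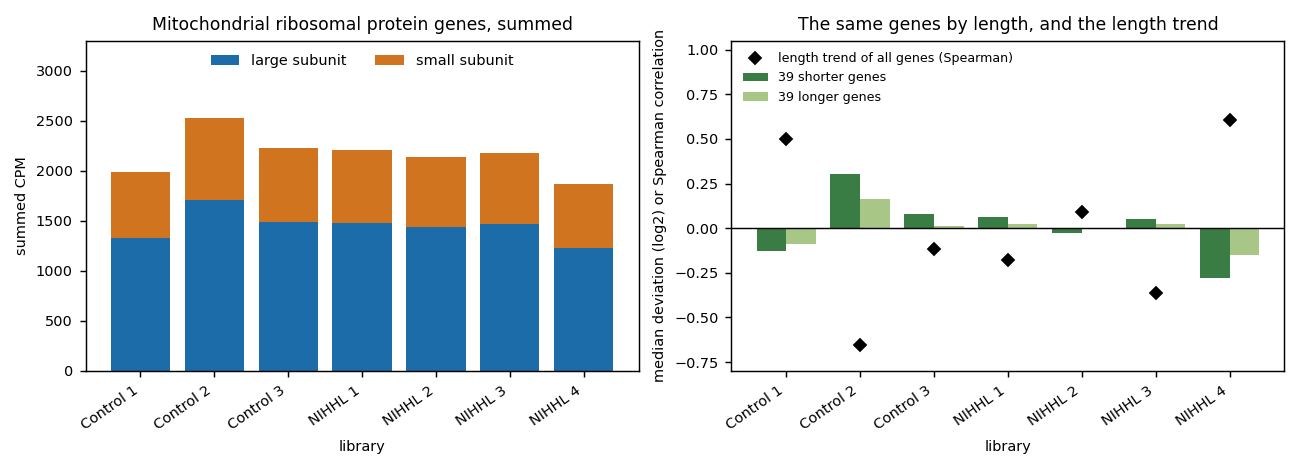
Left, summed CPM of the large-subunit and small-subunit genes in each library. Right, the median log2 deviation of the 39 shorter and 39 longer genes (bars) and the length trend over all genes as Spearman's rank correlation (diamonds). Bars are highest in Control replicate 2, where the correlation is -0.65, and lowest in NIHHL replicate 4, where the correlation is 0.61.

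The direction depended on which libraries were included. Without Control replicate 2, 42 of 78 genes were lower and the median was -0.0056. Without NIHHL replicate 4, 53 were lower with a median of -0.059. Without both, 25 were lower and the median turned to 0.053. These were the set's highest and lowest libraries, so leaving them out was bound to raise the median. Control replicate 1, the lowest of the libraries left, remained in that fit. In that fit Mrpl38 (log2 fold change 0.22, SE 0.089) and Mrps16 (0.29, SE 0.12) were the 2 genes with an unadjusted p under 0.05. Both were higher and neither was called (adjusted p = 0.664 and 0.669, edgeR). Of all genes in that fit, 566 of 14508 were higher at an unadjusted p under 0.05. Without Control replicate 1, whose length trend ran the same way as in NIHHL replicate 4, 77 were lower with a median of -0.19. There 17 of the 78 were lower at an unadjusted p under 0.05, where 402 of 14660 of all genes were. In each of these fits 0 of the 78 were called.

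**Figure D5:**
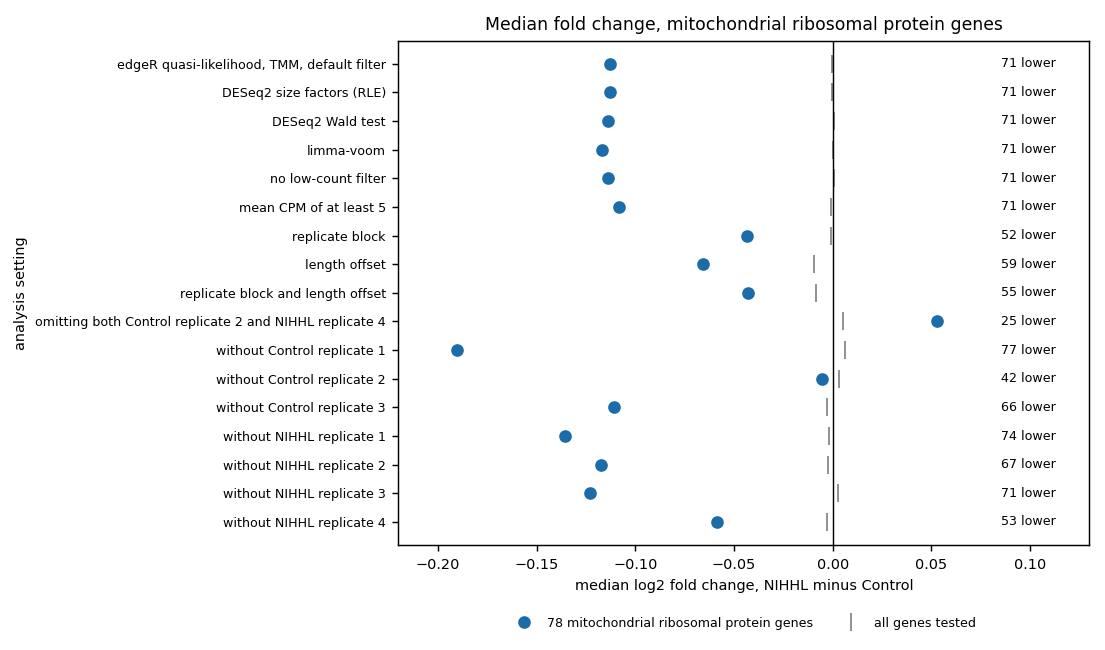
Median log2 fold change of the 78 genes (points) and of all genes tested (grey ticks) under each analysis setting, with the number of the 78 with a lower mean in NIHHL at the right. The median runs from -0.19 without Control replicate 1 to 0.053 without both Control replicate 2 and NIHHL replicate 4.

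Markers of other cell types differed between the libraries. All 12 choroid plexus markers had a higher mean in NIHHL, 0 of them at an unadjusted p under 0.05. Their summed level was 208, 7190 and 1557 CPM in Control against 8770, 673, 4826 and 4504 CPM in NIHHL, and 0 of the 12 were without counts. All 7 measured ependymal markers were higher, 5 at an unadjusted p under 0.05, where 2.32% of all genes were higher at that threshold. They summed to 33.5 to 51.2 CPM in Control and 56.03 to 70.9 CPM in NIHHL, again with none at 0. Of the oligodendrocyte markers 6 of 7 were higher, 3 at that threshold. They summed to 6720 to 8457 CPM in Control and 7689 to 9165 CPM in NIHHL. By median log2 fold change, astrocyte markers stood at 0.062 with 7 of 7 higher. Meningeal fibroblast markers were higher in 7 of 8 cases (median 0.19). Endothelial markers were lower in 4 of 6 (-0.13), inhibitory neuron markers in 4 of 6 (-0.054) and microglial markers in 3 of 6 (0.014), and excitatory neuron markers were higher in 5 of 8 (0.086). In these 6 lists 0 markers had an unadjusted p under 0.05. The part of these cells in the levels of the set was not tested. In bulk tissue fewer cells of a type and less RNA per cell cannot be told apart.

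The genes' start sites were then compared by sequence. Whether the motifs bear on the movement of the set between libraries was not tested. RefSeq promoter windows (GRCm38.p6, 250 bases before to 50 after a start) matched 69 of the 78 genes with 75 windows; Mrpl13, Mrpl15, Mrpl19, Mrpl38, Mrpl4, Mrpl54, Mrps28, Mrps34 and Mrps35 had no entry. Short motifs of 3 factors known for promoters of mitochondrial genes were searched on both strands. CCGGAAG, a core of ETS family sites such as those of GABP, was in 34.7% of the set's windows, 8.86% of all 32851 windows and 15.4% of those of genes tested here. AAGATGGC, a core of YY1 sites, was in 16.0%, 2.75% and 3.92%, and GCGCATGC, a core of NRF1 sites, in 10.7%, 2.71% and 4.74%. GGGCGGG, the GC box, was in 42.7%, 25.6% and 44.9%, and TATAAA in 6.67%, 13.6% and 7.20%. The NRF1 core is partly palindromic, so matches on the opposite strands can overlap.

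Genes with the ETS core had a median log2 fold change of -0.087 and those without it -0.12. For the YY1 core the medians were -0.13 and -0.11, and for the NRF1 core -0.11 and -0.11. A match is a description of letters and not a bound site. The 250 bases upstream of the start are shown for 5 genes, the 2 with the smallest p (Mrpl36 and Mrpl33), 2 of the large subunit whose window holds cores of 2 factors (Mrpl22 and Mrpl32) and 1 of the small subunit (Mrps26), on their own strands and with the cores of the 3 factors in capitals. RefSeq's start lies inside the GENCODE gene for all 5, so some or all of the bases shown lie within the annotated gene. Mrpl36 lies at chr13:73330759-73331008 (+), Mrpl33 at chr5:31613701-31613950 (+), Mrpl22 at chr11:58171414-58171663 (+), Mrpl32 at chr13:14613038-14613287 (-) and Mrps26 at chr2:130563507-130563756 (+).
Mrpl36: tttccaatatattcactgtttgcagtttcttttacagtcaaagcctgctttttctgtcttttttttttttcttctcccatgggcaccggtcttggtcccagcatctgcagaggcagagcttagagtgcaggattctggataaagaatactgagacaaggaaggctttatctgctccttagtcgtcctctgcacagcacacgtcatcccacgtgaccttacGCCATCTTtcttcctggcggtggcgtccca
Mrpl33: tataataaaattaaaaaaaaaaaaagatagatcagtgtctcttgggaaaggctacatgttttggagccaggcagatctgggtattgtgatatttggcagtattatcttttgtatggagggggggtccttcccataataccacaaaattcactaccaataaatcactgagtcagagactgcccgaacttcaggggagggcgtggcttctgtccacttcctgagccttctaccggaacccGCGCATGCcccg
Mrpl22: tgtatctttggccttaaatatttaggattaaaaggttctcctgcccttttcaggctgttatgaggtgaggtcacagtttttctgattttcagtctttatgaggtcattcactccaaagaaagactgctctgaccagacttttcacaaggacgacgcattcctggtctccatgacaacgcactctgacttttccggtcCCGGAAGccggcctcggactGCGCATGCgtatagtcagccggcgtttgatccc
Mrpl32: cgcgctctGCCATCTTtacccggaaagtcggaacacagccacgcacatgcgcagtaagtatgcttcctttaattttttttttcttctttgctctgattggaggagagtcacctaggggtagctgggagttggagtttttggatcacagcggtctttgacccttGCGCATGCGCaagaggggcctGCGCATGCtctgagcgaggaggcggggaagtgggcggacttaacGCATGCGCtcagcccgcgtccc
Mrps26: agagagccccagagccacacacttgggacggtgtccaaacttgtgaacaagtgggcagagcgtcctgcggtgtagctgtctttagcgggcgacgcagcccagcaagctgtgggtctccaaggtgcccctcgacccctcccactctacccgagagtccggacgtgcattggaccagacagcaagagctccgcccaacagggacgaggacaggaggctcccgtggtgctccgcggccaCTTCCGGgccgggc

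Mrpl36 shows a YY1 core 30 bases before the start and Mrpl33 an NRF1 core 12 bases before it. In Mrpl22 an ETS core stands 53 and an NRF1 core 33 bases upstream, and Mrpl32 holds 4 NRF1 matches, 2 of them overlapping, 22 to 87 bases upstream and a YY1 core 242 bases upstream. Mrps26 holds an ETS core 14 bases upstream. Log2 fold changes of the last 3 were -0.13 (SE 0.18) for Mrpl22, -0.14 (SE 0.15) for Mrpl32 and -0.22 (SE 0.12) for Mrps26. Over the settings Mrpl22 ran from -0.23 to 0.14 and Mrpl32 from -0.22 to 0.12, both changing sign.

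The other genes of mitochondrial translation were read from the same fit. Genes of the 5 mitochondrial ribosomal proteins with other names (Dap3, Ptcd3, Chchd1, Aurkaip1 and Gadd45gip1) were all lower in mean. Their median log2 fold change was -0.11, with 0 at an unadjusted p under 0.05. Ptcd3, a pentatricopeptide protein of the small subunit, averaged 42.4 ± 2.24 CPM in Control libraries and 39.3 ± 1.68 in NIHHL libraries (-0.11, SE 0.073), and Chchd1, also of the small subunit, averaged 22.98 ± 3.47 and 20.3 ± 2.88 CPM (-0.18, SE 0.13).

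Translation factors were lower in 10 of 16 cases (median -0.026, median length 2606 bases), 1 of them at an unadjusted p under 0.05 (all genes 1.31%). That was Mtrf1l, the peptide release factor, with 4.91 ± 0.471 CPM in Control libraries and 3.85 ± 0.356 in NIHHL libraries (log2 fold change -0.36, SE 0.15, adjusted p = 0.996, edgeR), with every NIHHL library below every Control library. Its relative Mtrf1 had a log2 fold change of -0.25 (SE 0.15). Ribosome assembly factors were lower in 13 of 25 cases (median -0.0048), with 0 at an unadjusted p under 0.05. Mettl15, a methyltransferase of the small-subunit ribosomal RNA, was at 5.96 ± 0.232 against 6.88 ± 0.709 CPM without overlap of the groups (0.21, SE 0.13), and Trmt2b, another RNA methyltransferase, had 0.19 (SE 0.12). Mitochondrial aminoacyl-tRNA synthetases were lower in 10 of 17 cases (median -0.0072), with 0.10 (SE 0.11) for Yars2 and -0.13 (SE 0.17) for Nars2.

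Genes of mitochondrial transcription and its nuclear regulators were lower in 5 of 11 cases (median 0.011). Gabpa, the DNA-binding part of the factor GABP, had a log2 fold change of 0.13 (SE 0.13), and Polrmt, the mitochondrial RNA polymerase, 0.046 (SE 0.089). The messenger RNAs of the 13 mitochondrially encoded proteins, which the ribosome translates, were all lower in mean (median -0.11, median length 784 bases). Of them 3 had an unadjusted p under 0.05, where 1.31% of all genes were lower at that threshold. Protein was not measured. The summed share of counts of these 13 genes was 11.4% ± 0.578 in Control and 10.8% ± 0.266 in NIHHL. mt-Atp8, a subunit of ATP synthase, averaged 485 ± 35.3 CPM in Control libraries and 326 ± 32.1 in NIHHL libraries (-0.57, SE 0.086, adjusted p = 0.472, edgeR). It was called by DESeq2 (adjusted p = 1.50e-05), and its reading frame overlaps mt-Atp6, so counts could be split between them. mt-Nd1, a subunit of complex I, was at 8038 ± 504 and 7060 ± 178 CPM (-0.19, SE 0.066, adjusted p = 0.996, edgeR). In mt-Atp8 and mt-Nd1 every NIHHL library lay below every Control library, which held for 2.37% of all genes. The third of the 3 with an unadjusted p under 0.05 was mt-Co2 of complex IV (-0.16, SE 0.067), named after its value was seen. Of 15 measured genes of general mitochondrial content, 14 were lower (median -0.044), with Timm44 of the import motor at 28.8 ± 2.57 and 25.03 ± 1.03 CPM (-0.21, SE 0.087) and the outer membrane channel Vdac1 at -0.11 (SE 0.070). In edgeR's test 0 genes of these lists were called.

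Counting can blur some of these values. Of the 78 genes, 33 share exon bases with another gene, 28 of them on the opposite strand, and the sources used here do not say whether reads were counted by strand. Deposited counts carried decimals for 15 genes, of which 12 share exon bases, and in every library for 7 genes. Mrps11 and Mrpl46 overlap each other by 173 bases on opposite strands of chromosome 7. Among the 33 genes that share exons, 31 were lower in NIHHL with a median of -0.11, and among the other 45, 40 were lower with a median of -0.12.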

How the data were processed

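Polyadenylated RNA of 7 hippocampal samples was sequenced on an Illumina instrument, per the labels. The authors deposited expected counts per gene, unscaled and estimated by a step that the sources used here do not describe. Of the values, 90.7% were whole numbers, and 87.4% for the 78 genes. Tools named in the submitters' processing notes are HISAT2, Bowtie2 2.2.8, StringTie 1.3.1 and DESeq2, with no role given. Build, annotation and strandedness are likewise not given there. Total counts ran from 14871367 to 24515138 per library.

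Counts were rounded and filtered with filterByExpr (minimum count 10), and 14417 genes with 99.96% of counts remained. They were tested with edgeR 4.0.16 in R 4.3.3 (TMM scaling, quasi-likelihood test, group as the term), with Benjamini-Hochberg adjustment over all genes and a threshold of 0.05. The procedure was tested on simulated counts with log2 changes of 1 or 2 in size, without a length trend. Of the changed genes 100% were called, with 10 false calls among 14341 genes run. These changes are larger than any of the set, so the test does not show how differences of the size seen here are detected. SE is the log2 fold change over the square root of F, and log2 CPM has a prior count of 2. Alternatives were DESeq2 1.42.0, limma 3.58.1 (voom), other scaling and filters, a replicate block, an offset for transcript length (a spline with 5 degrees of freedom per library) and libraries left out. Omitting a pair of libraries together was listed among them with earlier results known.

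Lengths, exons and positions came from GENCODE M21 (GRCm38), and all 78 genes matched by identifier. The genes, lists and tests were chosen with earlier results of these data known. Named were the genes with the smallest p in each direction, the highest and lowest per length and those with special roles. In each companion list the pair with the smallest p was named. Mrpl22 and Mrpl32 were named for their promoters. Mitochondrial ribosomal RNAs, Phb and Pifo were not analysed here.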

Additional observations from a re-analysis of the deposited data

Results flagged for a closer look

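In the 4 NIHHL libraries, replicate 4 lay far below the other 3 for several quantities, with the gap to its nearest neighbour taking 0.879 of the group's range for Mrps34, 0.873 for Mrpl14 and 0.888 for Mrpl49 (log2 CPM). Each is above Dixon's critical value for 4 samples. The share of counts in cytosolic ribosomal protein genes stood apart in the same library, with 0.869 of the range. In all, 38 quantities were tested and 4 stood out, where chance gives about 1 in 20 for independent quantities. These quantities are not independent, since the genes moved together from library to library, so the count cannot be set against chance. Mrps34, Mrpl14 and Mrpl49 were also among the genes named for a small p and a lower mean in NIHHL. Groups of 3 were not tested, so the Control libraries were not checked in this way.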

How the results depend on the processing

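The count of mitochondrial ribosomal protein genes called was 0 in all 17 settings. The median log2 fold change of the 78 changed sign when Control replicate 2 and NIHHL replicate 4 were omitted together (0.053). They were the set's highest and lowest libraries, so a higher median was bound to follow. The number with an unadjusted p under 0.05 and a lower mean was 2 with all libraries, 3 with limma-voom or with no low-count filter (Mrps34 added), 0 without those 2 libraries, 1 with the length offset (Mrps34) and 0 with the replicate block, alone or with the length offset. Over the fits without 1 library each it ran from 0 to 17: 17 without Control replicate 1, 0 without Control replicate 2 or NIHHL replicate 4, 1 without NIHHL replicate 2 or 3, and 2 or 3 in the others. Of all genes, 189 of 14417 were lower at that threshold with all libraries. In the fits without 1 library each this ran from 143 of 14413 (without NIHHL replicate 2) to 402 of 14660 (without Control replicate 1). The number of the 78 higher was 2 without both libraries, where 566 of 14508 of all genes were higher. Over all genes DESeq2 called 4 (mt-Atp8, Hsd3b1, Akr1cl and Dnah6) and edgeR without both libraries called 1, Gcat. With all libraries edgeR called 0 and had 523 at an unadjusted p under 0.05; these 5 genes were named after their values were seen. Replicate numbers are shared by the groups, and the labels do not say what a number stands for. Same-numbered libraries did not deviate together: the correlations of their deviations from the group means were -0.45, -0.44 and 0.061 for numbers 1 to 3. With so few libraries these correlations cannot tell whether a number also stands for a shared batch. Of these libraries NIHHL replicate 3 alone correlated best with the same number in the other group. With the replicate block 52 of 78 were lower, with a median of -0.043. NIHHL replicate 4 has no Control library of its number, so in that fit it adds nothing to the group difference. Without NIHHL replicate 4 and without a block, 53 were lower with a median of -0.059. Of the 78, 25 kept one sign in every setting, 24 of them lower in NIHHL.

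Sign changes are given here for genes named above. Those listed with the replicate block or the length offset fell on genes close to 0 with all libraries. Those with libraries omitted also fell on genes further from 0, such as Mrpl20 (-0.20 with all libraries). Genes not listed changed sign too, and Mrps21 ran from -0.14 to 0.23 over the settings. With the replicate block log2 fold changes were 0.0094 for Mrpl17, 0.078 for Mrps35, 0.019 for Mrpl10, 0.026 for Mrpl45 and 0.049 for Mrps36. With the length offset they were -0.022 for Mrps17, 0.069 for Mrps36 and 0.079 for Mrps12, and with block and offset -0.0024 for Mrpl57, 0.067 for Mrps35, 0.014 for Mrpl10, 0.018 for Mrpl45 and 0.063 for Mrps36. Omitting both Control replicate 2 and NIHHL replicate 4 gave 0.15 for Mrpl20, 0.10 for Mrpl42, 0.042 for Mrps33, 0.10 for Mrpl17, 0.11 for Mrps35, 0.027 for Mrpl12, 0.096 for Mrpl10, 0.063 for Mrpl45, 0.068 for Mrpl58, 0.13 for Mrps36, 0.030 for Mrps18a, 0.067 for Mrps18c, 0.029 for Mrps12, 0.098 for Mrpl2 and 0.012 for Mrpl3. Leaving out 1 library at a time gave ranges of -0.0082 to 0.19 for Mrpl38, -0.0012 to 0.11 for Mrpl4, -0.047 to 0.19 for Mrpl57, -0.0050 to 0.041 for Mrps17, -0.098 to 0.14 for Mrpl51, -0.10 to 0.10 for Mrpl44, -0.36 to 0.022 for Mrpl20, -0.27 to 0.030 for Mrpl42, -0.32 to 0.0026 for Mrps33, -0.080 to 0.073 for Mrpl17, -0.093 to 0.082 for Mrps35, -0.072 to 0.053 for Mrpl10, -0.054 to 0.029 for Mrpl45, -0.24 to 0.017 for Mrpl58, -0.12 to 0.055 for Mrps36, -0.13 to 0.065 for Mrps12 and -0.23 to 0.018 for Mrpl2. The cause of these changes was not tested.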
